A study of Mus musculus with 2 samples.

Results

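The 10 genes Dapk2, Herc1, Usp3, Snx1, Snx22, Csnk1g1, Trip4, Car12, Rab8b and Lactb lie within one stretch of 2.1 Mb on mouse chromosome 9 (GRCm38), all annotated as protein-coding. They were named from a deposited table of 55337 gene symbols, and each has its own row there. The stretch was picked because it had the highest median ratio between the libraries, so a high ratio of these genes is how they were chosen and is given here as a description, with no test. RNA was sequenced from the mouse pancreatic cancer line KPC2 in 2 states with 1 library each: wild type cells that had no drug, and gemcitabine-resistant cells kept long-term in 260 ng/mL gemcitabine, a deoxycytidine analogue. Both were grown in DMEM with serum. The labels give neither a genotype for KPC2 nor whether the resistant cells are 1 clone or a mixture. What the drug does while present and what persists in the resistant cells cannot be told apart, and without replicates each difference describes these 2 libraries only.

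As background, these genes are neighbours with unrelated products. Dapk2 encodes a calmodulin-regulated death-associated protein kinase with roles in apoptosis and autophagy, and Csnk1g1 a membrane-bound casein kinase 1. Herc1 encodes a giant HECT-type ubiquitin ligase, and Usp3 a deubiquitinase that removes ubiquitin from histones H2A and H2B. Snx1 and Snx22 encode sorting nexins of endosomes, and Rab8b a small GTPase of transport to the plasma membrane. Trip4 encodes the coactivator ASC-1, Car12 a carbonic anhydrase with its active site outside the cell, and Lactb a filament-forming protein of mitochondria. Genes next to each other can share chromatin and DNA copies, which is why a stretch of neighbours is read together.

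Values were read as FPKM, a level scaled by gene length and by library depth, and genes that reached 1 FPKM in either library are called measured. That held for 12193 genes and for 9 of the 10 described here, Snx22 being the exception. Differences are given as log2((resistant FPKM + 1)/(wild type FPKM + 1)), the log2 ratio, and a ratio past 1 or -1 is called 2-fold. Low FPKM values fell on steps of whole fragments, from which the fragments behind each value were estimated on the longest annotated transcript. The 95% intervals below are exact Poisson intervals for a level and exact binomial (Clopper-Pearson) intervals for a ratio, and cover counting error only. Among epithelial markers, Krt8, Krt18, Krt19 and Cdh1 stood at 164 FPKM or more in both libraries, while Epcam was at 0.21 in wild type and 0.10 FPKM in resistant cells. Of 28 markers of leukocytes, fibroblasts, endothelium, acini and islets, 3 were measured: Cd68 (1.17 in wild type and 5.48 FPKM in resistant cells), Lyz2 (0.36 and 1.53 FPKM) and Cela1 (4.38 and 1.48 FPKM). The 7 leukocyte markers summed to 1.58 FPKM in wild type and 7.27 FPKM in resistant cells, with Cd3e listed at 0 in both, and their part in the values below was not tested. In RNA from whole cultures, fewer cells of a type and less RNA per cell cannot be told apart.

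The sequences just upstream of these genes are shown so that the promoters of the most different genes can be compared. All 10 symbols were matched to promoter windows from RefSeq on GRCm38.p6, and the 250 bases before each start were read 5′ to 3′ on the gene's strand. Dapk2 and Car12 were the measured genes with the lowest wild type levels, and Herc1 and Usp3 had the next highest log2 ratios after Dapk2. The last line is the 129 bases between the divergent starts of Trip4 and Csnk1g1 in GENCODE, on the + strand. Capitals mark any match, on either strand, to 8 motifs. These were the GC box GGGCGG, the CCAAT box, the TATA box TATAAA, the E box CACGTG, the cyclic AMP element TGACGTCA, the AP-1 site TGANTCA, the ATF4 composite site TGATGNAA and the antioxidant element TGACNNNGC, of which none contains another. The 4 windows and the stretch lie at chr9:66157976-66158225 (+), chr9:66713436-66713685 (+), chr9:66350200-66350449 (+), chr9:66593116-66593365 (-) and chr9:65908795-65908923 (+).
Dapk2: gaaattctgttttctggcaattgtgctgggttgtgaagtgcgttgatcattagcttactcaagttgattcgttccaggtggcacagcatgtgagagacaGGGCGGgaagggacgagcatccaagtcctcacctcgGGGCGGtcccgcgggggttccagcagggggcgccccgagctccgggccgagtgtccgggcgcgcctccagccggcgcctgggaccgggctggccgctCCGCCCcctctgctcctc
Car12: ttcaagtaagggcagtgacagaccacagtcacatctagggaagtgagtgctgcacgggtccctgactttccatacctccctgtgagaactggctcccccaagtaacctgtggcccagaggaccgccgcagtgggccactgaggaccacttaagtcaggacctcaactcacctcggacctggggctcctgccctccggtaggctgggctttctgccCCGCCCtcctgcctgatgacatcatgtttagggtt
Herc1: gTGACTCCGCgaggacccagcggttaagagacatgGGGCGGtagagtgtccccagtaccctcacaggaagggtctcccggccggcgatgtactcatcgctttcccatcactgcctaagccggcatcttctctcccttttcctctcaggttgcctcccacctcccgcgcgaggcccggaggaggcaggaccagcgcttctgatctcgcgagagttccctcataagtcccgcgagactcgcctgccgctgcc
Usp3: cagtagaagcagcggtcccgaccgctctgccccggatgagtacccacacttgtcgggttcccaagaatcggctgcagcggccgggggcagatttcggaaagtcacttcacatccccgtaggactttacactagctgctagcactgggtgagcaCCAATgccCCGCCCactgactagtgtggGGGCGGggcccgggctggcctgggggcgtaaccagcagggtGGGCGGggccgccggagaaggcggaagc
Trip4-Csnk1g1: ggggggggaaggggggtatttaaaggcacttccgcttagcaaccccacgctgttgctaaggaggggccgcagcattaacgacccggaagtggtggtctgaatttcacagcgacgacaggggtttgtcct

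The Dapk2 window held 3 GC boxes and none of the other 7 motifs, and the Car12 window held 1 GC box. In the Herc1 window there was 1 GC box and 1 antioxidant element, and in that of Usp3 there were 3 GC boxes and 1 CCAAT. No motif fell in the stretch between Trip4 and Csnk1g1. For the 10 genes the window nearest the GENCODE start was taken. For the measured genes it was the first window listed for each symbol. The shares and CpG values set beside each other below thus rest on starts chosen differently. GC boxes were found upstream of 9 of the 10 genes, all but Lactb, against 62.1% of 8478 measured protein-coding genes and 32.7% of all 32841 windows. The antioxidant element was found for Herc1, Rab8b and Snx22, against 12% of the measured genes and 10.2% of all windows. CCAAT was found for Snx1, Usp3 and Rab8b, against 37.5% and 33.9%. The TATA box, E box, cyclic AMP element, AP-1 site and ATF4 site were found in none of the 10 windows, and in 6.23%, 8.72%, 2.9%, 4.23% and 1.91% of those of measured genes (12.4%, 6.02%, 1.55%, 6.75% and 3.45% of all windows). Dapk2, Herc1, Usp3 and Rab8b had 18 to 20 CpG dinucleotides in the 250 bases and an observed over expected CpG ratio of 0.67 to 0.81, beside a median of 0.76 over measured genes. Car12 had 6 CpG and a ratio of 0.28, and Snx22 had 10 CpG and a ratio of 0.41, both below the lower quartile of 0.58. Trip4, Csnk1g1 and Lactb had ratios of 0.59, 0.61 and 0.72. The windows of Trip4 (chr9:65908795-65909044) and Csnk1g1 (chr9:65908760-65909009) overlap over most of their length. Much of the same DNA is therefore read for both genes, in the motif counts as well. The Snx1 window had 5 CpG and a ratio of 0.25, also below that quartile. Its RefSeq start, however, lies 1701 bases from the GENCODE one, where the other 9 starts differ by 86 bases or less.

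**Figure D1:**
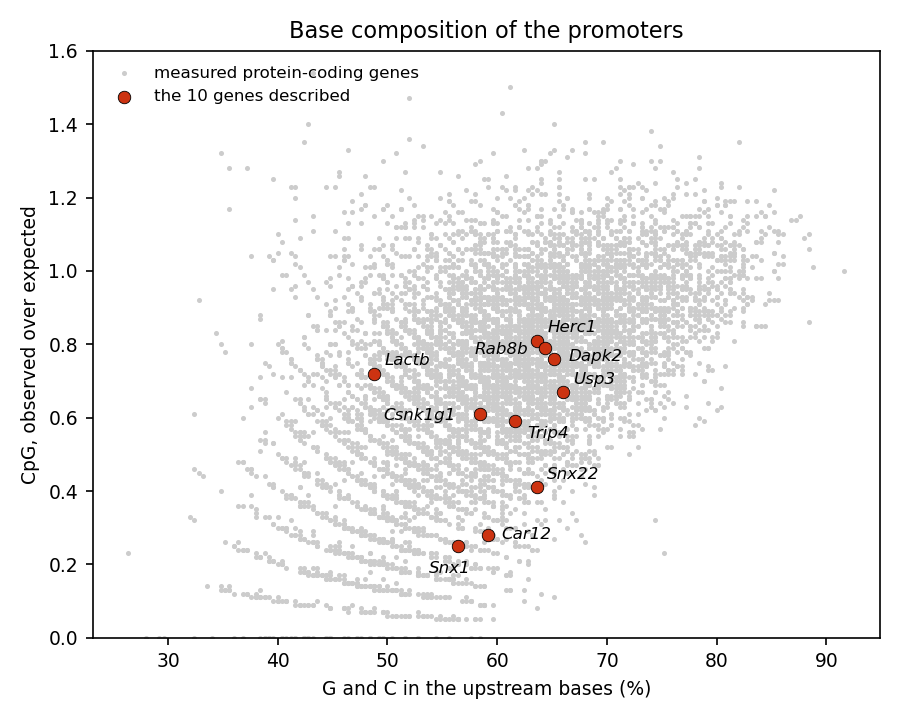
Share of G and C (x axis, percent) against the CpG count over that expected from base composition (y axis) in the 250 bases upstream of the RefSeq start, for 8478 measured protein-coding genes (grey) and the 10 genes of the neighbourhood (red). Grey windows are the first listed for each symbol, and red ones the nearest to the GENCODE start. Among the red points Car12 and Snx1 sit lowest, at 0.28 and 0.25, and Herc1 highest, at 0.81.

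In resistant cells 6 of the 9 measured members stood 2-fold or more above wild type, and none stood that far below. The share over the 12193 measured genes was 7.9% higher and 8.37% lower, and nothing is read from the comparison, since the genes were picked on this contrast. Their median log2 ratio was 1.29, beside 0.02 over all measured genes. The counting intervals of the 2 libraries did not overlap for any of the 9, but the share over all measured genes was not computed. With many fragments small ratios separate as well. Csnk1a1, a gene related to Csnk1g1, had an FPKM ratio of 1.105 and intervals of 153.0 to 158.1 FPKM in wild type and 169.1 to 174.5 in resistant cells. Nothing is read from the count. In FPKM without the pseudocount, 7 of the 9 stood 2-fold or more above wild type. The share that stood so far above was 10.5% of measured genes listed above 0 in both libraries.

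**Figure D2:**
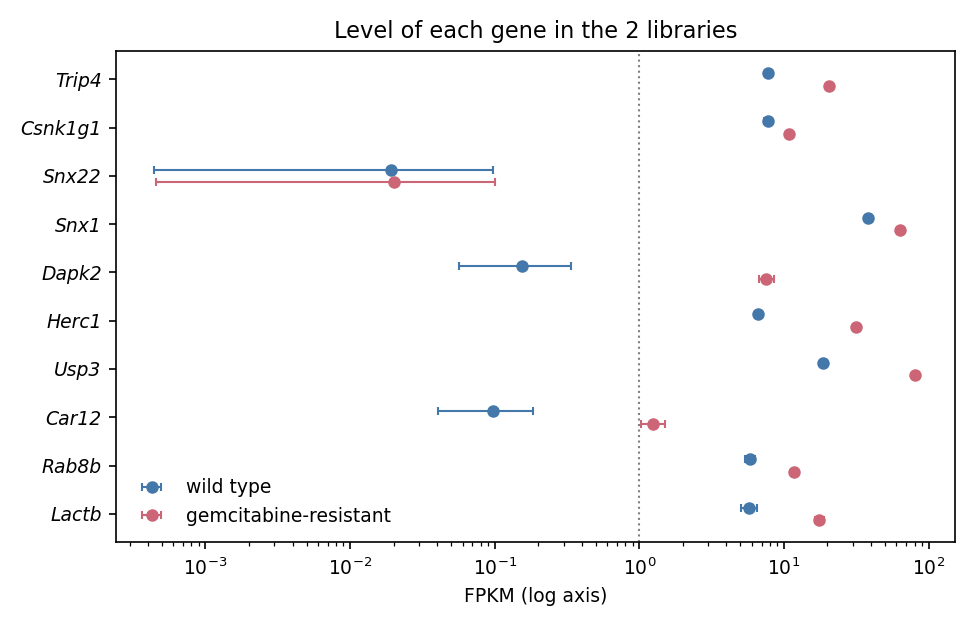
FPKM of each gene on a log axis, in order along the chromosome, in the wild type (blue) and resistant (red) library, with 95% Poisson intervals from estimated fragments and a dotted line at 1 FPKM. Dapk2 and Car12 lie under the line in wild type cells and over it in resistant cells, and Snx22 lies far under it in both.

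The order of levels differed between the libraries. In wild type cells Snx1 stood highest, followed by Usp3, Trip4, Csnk1g1, Herc1, Rab8b, Lactb, Dapk2, Car12 and Snx22. The intervals of Trip4 and Csnk1g1 overlapped there, as did those of Rab8b and Lactb, of Dapk2 and Car12, and of Car12 and Snx22. Those of Herc1 and Lactb and of Dapk2 and Snx22, not next to each other in the order, overlapped too. In resistant cells Usp3 stood above Snx1, and Herc1, Trip4, Lactb, Rab8b, Csnk1g1, Dapk2, Car12 and Snx22 followed. Only Rab8b and Csnk1g1 were neighbours with overlapping intervals in that order.

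Dapk2, the death-associated kinase, had the highest ratio of the members at a pseudocount of 1. It lies at chr9:66158223-66272242 (+ strand, ENSMUSG00000032380) and stood at 0.155 FPKM in wild type cells, about 6 fragments (interval 0.057 to 0.338 FPKM), and at 7.54 FPKM in resistant cells, about 282 fragments (6.68 to 8.47 FPKM). Its level went from under the measured line to that of a moderately expressed gene. The FPKM ratio was 48.6 (22.0 to 133) and the log2 ratio with the pseudocount 2.89, rank 87 of 12193. Because the wild type value rests on 6 fragments, the size of the ratio is loosely set: with a pseudocount of 5 the log2 ratio was 1.28, below Usp3 at 1.87 and Herc1 at 1.65.

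Genes related to Dapk2 mostly lay within 2-fold. Dapk1, one of its closest paralogues, was at 0.0086 and 0.050 FPKM in wild type and resistant cells, below the measured line. Dapk3 stood at 15.1 in wild type and 18.3 FPKM in resistant cells. Stk17b, an apoptosis-inducing kinase of the same family, was the exception and was at 4.86 and 18.6 FPKM, a log2 ratio of 1.74. The calmodulin genes Calm2 and Calm3 had log2 ratios of -0.57 and -0.11, and Becn1, an autophagy gene, 0.04. Of the 6 measured genes related to Dapk2, 1 was at least 2-fold higher and none lower.

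Csnk1g1, the other kinase (chr9:65908924-66045015, + strand, ENSMUSG00000032384), stood at 7.70 FPKM in wild type cells and 10.8 FPKM in resistant cells, a log2 ratio of 0.44, the lowest of the 9. It was higher in resistant cells but within 2-fold. Its paralogues Csnk1g2 and Csnk1g3 had log2 ratios of 0.14 and -0.46. Csnk1a1, Csnk1d and Csnk1e, the soluble casein kinases 1 of Wnt and clock pathways, had ratios of 0.14, 0.37 and 0.58, so none of the 5 related genes differed by 2-fold.

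Herc1 and Usp3, a ubiquitin ligase and a deubiquitinase, came next among the members on the log2 scale with a pseudocount of 1 and stood at similar ratios. By the FPKM ratio alone Car12, at 12.75, stood above both. Herc1 (chr9:66350450-66508775, + strand, ENSMUSG00000038664) was at 6.60 FPKM in wild type cells (6.34 to 6.88) and 31.5 FPKM in resistant cells (30.9 to 32.1). The FPKM ratio of 4.77 (4.56 to 4.99) rests on about 2374 and 10954 fragments. Usp3 (chr9:66514637-66593142, - strand, ENSMUSG00000032376) was at 18.6 FPKM in wild type cells (17.9 to 19.4) and 81.1 FPKM in resistant cells (79.5 to 82.7), an FPKM ratio of 4.36 (4.17 to 4.56). Their log2 ratios were 2.09 and 2.07, ranks 188 and 193. The genes lie tail to tail, Herc1 on the + strand ending at 66508775 and Usp3 on the - strand ending at 66514637. Between them lies Fbxl22, an F-box gene that was below 1 FPKM in both libraries and lower in resistant cells (0.256 in wild type and 0.024 FPKM in resistant). Fbxl22 shares 317 bases with Herc1 on the opposite strand.

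Most HECT ligases related to Herc1 stayed closer between the libraries. Herc2 stood at 5.09 in wild type and 7.46 FPKM in resistant cells, a log2 ratio of 0.48. Herc4 and Huwe1 had log2 ratios of 0.34 and 0.29, and Herc3 one of -0.67. Herc6, a ligase of the interferon response, was at 0.118 and 1.28 FPKM, a log2 ratio of 1.02 near the measured line.

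Genes that act on ubiquitin of histone H2A went in both directions beside Usp3. Rnf168, a ligase that marks H2A at DNA breaks, was at 12.6 FPKM in wild type and 2.99 FPKM in resistant cells, a log2 ratio of -1.77. Rnf8, the ligase upstream of it, was at 11.2 and 4.09 FPKM, a log2 ratio of -1.26. Usp22, the histone deubiquitinase of the SAGA complex, was at 27.2 and 57.1 FPKM, a log2 ratio of 1.04. The other deubiquitinases Usp16, Usp21, Mysm1 and Bap1 had log2 ratios from -0.38 to -0.10, and the Polycomb ligases Ring1 and Rnf2 -0.41 and 0.72. In all, 9 of the 10 listed genes were measured, 1 at least 2-fold higher and 2 at least 2-fold lower.

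The endosomal genes differed less. Snx1, a subunit of the sorting nexin dimer that works with retromer (chr9:66088133-66126587, - strand, ENSMUSG00000032382), stood at 38.3 FPKM in wild type and 63.1 FPKM in resistant cells, a log2 ratio of 0.71. Snx2, its paralogue, had a log2 ratio of 0.15, and the dimer partners Snx5 and Snx6 had 0.19 and -0.55. The retromer genes Vps26a, Vps26b, Vps29 and Vps35 had ratios of -0.16, 0.70, -0.04 and 0.42, and the endosomal sorting nexin Snx3 had 0.51. All 8 lay within 2-fold.

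Snx22 (chr9:66065176-66069719, - strand, ENSMUSG00000039452) was at 0.019 FPKM in wild type and 0.020 FPKM in resistant cells, about 1 fragment in each, so no difference was detectable at this depth. It overlaps Ppib, the gene of an abundant chaperone at 232 and 283 FPKM, by 1448 bases on the opposite strand, and the table does not say how shared fragments were split. Of 6 other PX-domain sorting nexins, 5 were measured and lay within 2-fold, Snx24 at a log2 ratio of -0.26.

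Rab8b (chr9:66843664-66919687, - strand, ENSMUSG00000036943) stood at 5.83 FPKM in wild type cells (5.39 to 6.30) and 11.8 FPKM in resistant cells (11.1 to 12.5). The FPKM ratio of 2.02 (1.84 to 2.23) is just over 2, and the log2 ratio with the pseudocount was 0.91, just under the 2-fold line. Its near twin Rab8a went the other way, at 90.03 FPKM in wild type and 42.9 FPKM in resistant cells, a log2 ratio of -1.05. Rab3ip, the exchange factor Rabin8 that activates Rab8, was at 13.2 and 27.1 FPKM (log2 ratio 0.98). Rab11a, a recycling endosome GTPase, was at 150.7 and 327.6 FPKM (1.11), but it lies on chromosome 9 itself, inside the left flank described below. Rab10, Rab13 and Optn, a Rab8 effector, had ratios of -0.31, -0.36 and 0.15.

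Trip4 (chr9:65828930-65908794, - strand, ENSMUSG00000032386) stood at 7.81 FPKM in wild type cells (7.39 to 8.25) and 20.6 FPKM in resistant cells (19.9 to 21.3). The FPKM ratio was 2.64 (2.47 to 2.82) and the log2 ratio 1.29. Pclaf, a replication gene that lies wholly inside Trip4 on the opposite strand, was at 77.8 and 55.6 FPKM, and the sources used here do not say whether fragments were counted by strand. The genes of the ASC-1 complex, in which the Trip4 product sits, all stood higher in resistant cells: Ascc3, its helicase, at 13.2 in wild type and 32.0 FPKM in resistant cells (log2 ratio 1.22), Ascc2 with a log2 ratio of 0.86 and Ascc1 with one of 0.68. Of these 3, only Ascc3 passed 2-fold. The thyroid hormone receptor gene Thrb was lower, at 4.77 and 0.89 FPKM (-1.61), and Thra and the coactivator Ncoa1 had ratios of 0.29 and 0.78.

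Car12 (chr9:66713686-66766845, + strand, ENSMUSG00000032373) was barely detected in wild type cells, at 0.098 FPKM or about 8 fragments (0.041 to 0.185 FPKM), and stood at 1.25 FPKM in resistant cells, about 103 fragments (1.02 to 1.51 FPKM). The FPKM ratio of 12.75 (6.503 to 31.6) becomes a log2 ratio of 1.03 with the pseudocount, since the level stayed low. It passed the level filter through the resistant library alone. Car9, the other transmembrane carbonic anhydrase tied to hypoxia, was below 1 FPKM in both, at 0.725 in wild type and 0.440 in resistant cells. Of 15 other carbonic anhydrase genes, 3 were measured, and none differed by 2-fold on the log2 scale: Car2 at 15.6 and 29.4 FPKM, the mitochondrial Car5b at 5.95 and 12.4 FPKM, and Car13 at 12.9 and 14.3 FPKM.

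Lactb (chr9:66955388-66975484, - strand, ENSMUSG00000032370) stood at 5.76 FPKM in wild type cells (5.07 to 6.498) and 17.6 FPKM in resistant cells (16.4 to 18.9), an FPKM ratio of 3.05 (2.65 to 3.53) and a log2 ratio of 1.46. Lactb2, a mitochondrial endoribonuclease gene elsewhere in the genome, had a similar ratio, at 19.0 in wild type and 64.6 FPKM in resistant cells (log2 ratio 1.71). Pisd, the phosphatidylserine decarboxylase gene, was at 10.9 and 11.6 FPKM.

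Over all 72 related genes, 56 were measured, 6 were at least 2-fold higher (10.7%) and 4 at least 2-fold lower (7.14%), and their median log2 ratio was 0.14. These shares stand beside 7.9% and 8.37% over all measured genes.

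**Figure D3:**
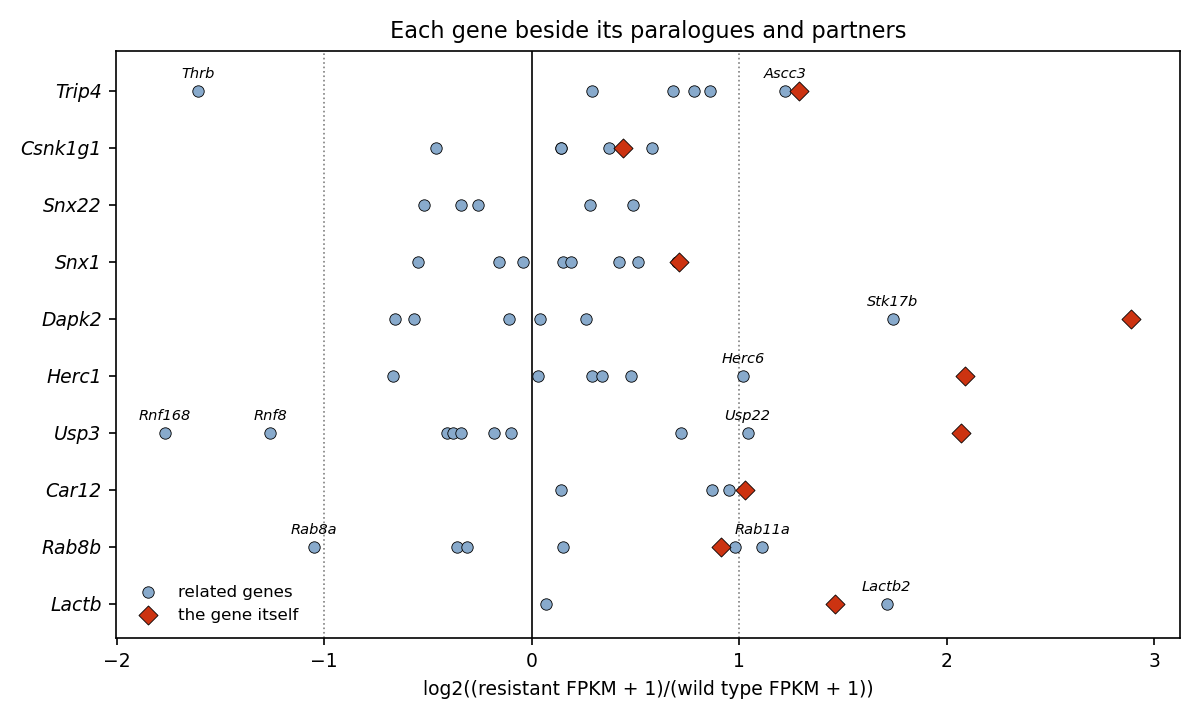
The log2((resistant FPKM + 1)/(wild type FPKM + 1)) of each of the 9 measured genes (red diamonds) and of the measured paralogues and partners listed for it (blue), 1 line per gene, with dotted lines at 2-fold. Dapk2, Herc1 and Usp3 stand clear to the right of their listed relatives, Rab8b, Lactb and Csnk1g1 have at least 1 relative further right, and Snx22, not measured, has no diamond. The red genes come from the stretch picked for high ratios, so their place to the right follows largely from that choice.

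Along the chromosome, the high ratios lay mostly from Ciao2a rightward. The window held 43 annotated genes, 22 of them measured and 12 at least 2-fold higher, with a median log2 ratio of 1.06. Genes on the + and - strands each had 6 of 11 at least 2-fold higher. Of the 13 measured genes other than the members, 6 were at least 2-fold higher. The share over all 12193 measured genes was 7.9%. The window was picked for its high median ratio in these same values, so its counts and median are a description only. Aph1b, a gamma-secretase subunit gene, was at 0.342 FPKM in wild type and 5.81 FPKM in resistant cells (log2 ratio 2.34), though its transcript is 97.1% identical over 1624 bases to that of its neighbour Aph1c, so the split between the pair is uncertain. Rps27l, a ribosomal protein paralogue and p53 target, was at 273 and 840 FPKM (1.62). Ciao2a, of cytosolic iron-sulfur assembly, was at 94.6 and 246 FPKM (1.37). The talin gene Tln2 was at 3.12 and 8.96 FPKM (1.27), the helicase gene Pif1 at 4.12 and 9.97 FPKM (1.10) and the tropomyosin gene Tpm1 at 360 and 764 FPKM (1.09).

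Other genes of the window lay within 2-fold. Plekho2 had a log2 ratio of 0.98, Zfp609 0.43, the antizyme gene Oaz2 0.31, Ppib 0.28 and Rbpms2 0.05. Pclaf was the sole measured protein-coding gene of the window that stood lower in resistant cells, at -0.48, and the pseudogene Ppp1r2-ps4 had a ratio of -0.39. From Ciao2a to Vps13c, 12 measured protein-coding genes in a row had an FPKM ratio of 2 or more, the longest such run on the chromosome, over 1.87 Mb and with 6 of the 10 members. The lowest in the run was Rab8b at 2.02. Snx1 before it had a ratio of 1.65 and Ice2 after it 0.765. The run was sought after the values were seen, and protein-coding genes that stayed under 1 FPKM in both libraries, Fbxl22 and Aph1c among them, are skipped in it. All its genes but Vps13c lie in the window, which was picked for high ratios in these same values. A long run there follows largely from that choice and is given as a description only.

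**Figure D4:**
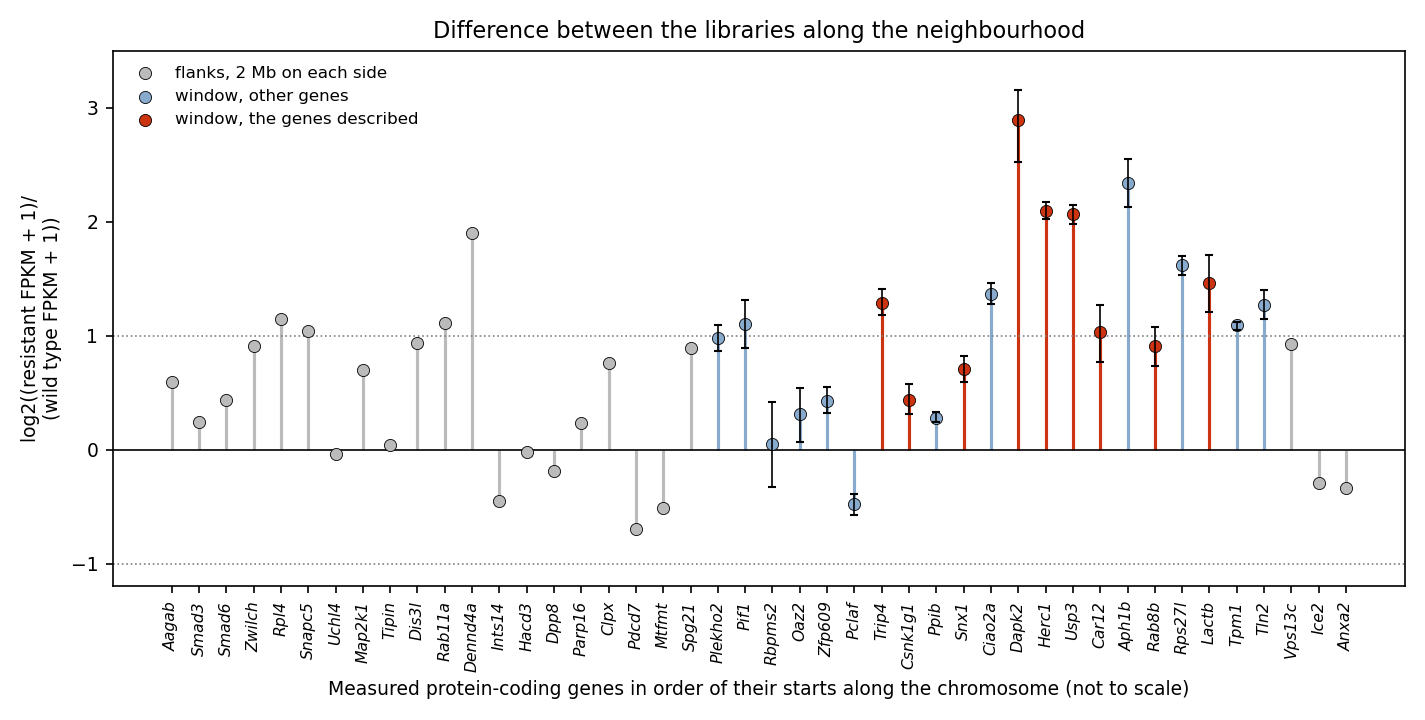
The log2((resistant FPKM + 1)/(wild type FPKM + 1)) of measured protein-coding genes in order along chromosome 9, in the window (red for the 9 measured members, blue for other genes, bars from the ends of the Poisson intervals) and in 2 Mb on each side (grey, no bars). Values peak at Dapk2 (2.89), stay at 0.91 or above up to Vps13c, and are below 0 at Ice2 and Anxa2.

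Just inside the left edge of the window the first measured protein-coding gene was Plekho2 (log2 ratio 0.98), and just outside it was Spg21, at 19.2 FPKM in wild type and 36.7 FPKM in resistant cells (0.89). The next genes outward were Mtfmt (-0.51), Pdcd7 (-0.70), Clpx (0.76) and Parp16 (0.23). At the right edge Tln2 (1.27) was the last inside, and Vps13c, a lipid transfer gene at 5.62 and 11.6 FPKM (0.93), the first outside. Farther right came Ice2 (-0.29), the annexin gene Anxa2 (-0.34), Bnip2 (-0.62) and Gtf2a2 (-0.44). In the 2 Mb to the left, 5 of 23 measured genes were at least 2-fold higher, with a median of 0.65, and in the 2 Mb to the right none of 3. Of the 5 on the left, 4 are protein-coding: Dennd4a (1.13 in wild type and 6.93 FPKM in resistant cells), Rpl4, Snapc5 and Rab11a. None of the flank genes was 2-fold lower. The rest of chromosome 9, outside the window and flanks, had 8.09% of 618 measured genes at least 2-fold higher, 9.71% at least 2-fold lower and a median of -0.05.

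Among its measured genes, the window had 2 pairs that start within 1000 bases of each other on opposite strands by their GENCODE starts. Trip4 and Csnk1g1 start 130 bases apart, with log2 ratios of 1.29 and 0.44. Snx1 and Ciao2a start 24 bases apart, with 0.71 and 1.37. The RefSeq start of Snx1, at 66124886, lies more than 1000 bases from that of Ciao2a, at 66126611. In both pairs 1 gene was at least 2-fold higher and the other within 2-fold, and both genes stood above 0.

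The authors' deposited table holds their own test of the 2 libraries, and it called none of these genes. It tested 9 of the 10, all but Snx22, and called 0.404% of its 13850 tested rows. In the authors' deposited table the lowest q-values among the members were 0.254 for Usp3, 0.348 for Herc1 and 0.94 for Dapk2, and the other 6 tested were all at 0.998. Before that adjustment, p in the authors' deposited table was 0.0026 for Usp3, 0.0044 for Herc1 and 0.0301 for Dapk2, and these 3 were the members under 0.05, a level that 4.81% of its tested rows passed. No row of the window was called there.

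For scale, the neighbours Rhog, Stim1 and Rrm1 on chromosome 7 were set beside these genes. There the FPKM ratios were 45.2, 50.9 and 35.0, from wild type levels of 19.55, 5.81 and 71.5 FPKM. Among the 9 measured members Dapk2 alone reached a ratio of that size, from about 6 fragments. Among the members with more than 100 fragments in both libraries the highest ratio was 4.77, for Herc1.

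By levels in both libraries, the measured genes nearest to Dapk2 were Fgf21, a stress-induced hormone gene (0.106 in wild type and 7.58 FPKM in resistant cells, 0.063 log2 units away), Zfp985 (0.144 and 8.78 FPKM, 0.196 away) and the pseudogene Gm49386 (listed at 0, and 7.51 FPKM, 0.208 away). The distance is over 2 libraries only, and none of the 3 lies on chromosome 9.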

How the data were processed

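The KPC2 RNA libraries were 1 wild type and 1 resistant. HISAT2, StringTie and the GRCm38 build are named, without role or version, per the submitters' processing notes. The authors deposited 1 table of 55468 rows whose header names no unit. The authors' values were read as FPKM since 92.8% (wild type) and 93.8% (resistant) of low values of single-transcript genes came within 0.1 of a whole fragment once multiplied by length less 160 bases. How that step was estimated was revised after the values were seen, and the estimated fragments and intervals rest on it. Per the file headers, each row also carries the authors' log2 fold change (no pseudocount), their test score, and their p-value and q-value.

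Rows of 1 symbol were summed, and 13 rows marked as failed or too deep were left out. A pseudocount of 1 and a level filter of 1 FPKM were used. For a 2 kb transcript, 1 FPKM rested on 44.1 wild type or 42.7 resistant fragments. With 1 library per group no test was run between conditions. Genes were placed with GENCODE M21, promoters came from RefSeq, and similar transcripts (90% identity or more) were sought with BLAST. Named genes are the members, the measured protein-coding genes of the window, the 5 nearest on each side, related genes at least 2-fold apart or closest in family, the 3 genes nearest to Dapk2 in level, and the chromosome 7 trio. Further related genes, flank genes and the pseudogene were named after their values were seen. Some listed genes are not reported here by name. Members and lists were chosen with earlier results of these data known. Alternatives tried were other pseudocounts, level filters, scalings, a fold threshold of 4, another way to merge rows, protein-coding genes only and a wider window. The fold calls were tested on simulated data, where nearly all altered genes were recovered; a pass mark set beforehand was missed in 1 class of fold by 1 gene with few fragments and was then lowered. Tools were Python 3.11.15, scipy 1.17.1, numpy 2.4.6, matplotlib 3.10.9 and pandas 2.3.3.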

Additional observations from a re-analysis of the deposited data

Results flagged for a closer look

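Aph1c, a gamma-secretase subunit gene of the window that stayed under the level filter and so outside the comparison, was listed at 0 in the wild type library and stood at 0.796 FPKM in the resistant one, about 93 fragments. It is singled out because a value of that size lies above 0.0248 FPKM, the wild type level that 3 fragments would give. Its transcript is 96.1% identical over 2139 bases to that of Aph1b, and the sources used here do not say how fragments were split between the pair. The authors' deposited table gives it a q-value of 0.123.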

How the results depend on the processing

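With a pseudocount of 5 in place of 1, the median log2 ratio of the window was 0.75, flank genes at least 2-fold higher numbered 3 and related genes at least 2-fold lower 1. Without the level filter the window's median was 0.84. With a fold threshold of 4 in place of 2, 3 members, 1 other window gene, 1 flank gene and 0 related genes were higher, and 0 related genes were lower. Over all 12193 measured genes, 220 (1.8%) were higher and 128 lower at that threshold. The members at least 2-fold higher numbered 7 with a pseudocount of 0.1, where Rab8b joined them, 5 with a filter of 5 FPKM or with upper quartile scaling, both without Car12, and 4 with a pseudocount of 5. A pseudocount cannot change the sign of a log2 ratio. The scalings moved the ratios little, Herc1 from 2.09 to 2.08 with median scaling and 2.01 with upper quartile scaling. A ratio of 1 or more therefore could not change sign under either, and its kept sign is no check. Over all measured genes, 428 were higher and 297 lower with a pseudocount of 5, and 1315 and 1553 with 0.1, beside 963 and 1021. Dapk2 ranged from 1.28 to 4.90 and Car12 from 0.29 to 2.77 over pseudocounts of 5 and 0.1. At 5 Usp3 was the highest member, at 1.87, and at 0.1 Car12 stood above Herc1 (2.24) and Usp3 (2.12). Leaving out a replicate was not possible with 1 library per group. No paired analysis was possible because each group has 1 library. Counting error limits Dapk2 and Car12 in the wild type library and Snx22 in both.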

Other observations

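Among carbonic anhydrase genes under the level filter, Car6 was listed at 0 in wild type cells and stood at 0.862 FPKM, about 28 fragments, in resistant cells, while Car1, Car3, Car4, Car8, Car10, Car11 and Car14 were listed at 0 in both libraries. Rab3il1, an exchange factor gene for Rab8, stood at 0.311 FPKM in wild type and 0.026 FPKM in resistant cells, about 37 and 3 fragments. Snord16a, a small nucleolar RNA gene inside Rpl4 in the left flank, was listed at 0 in wild type cells and stood at 75.4 FPKM in resistant cells, beside Rpl4 at 883 and 1967 FPKM. These genes were named after their values were seen.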
